A study of Mus musculus with 4 samples.

Results

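The listed transcription regulators of stemness and quiescence, Tcf7, Lef1, Id3, Bach2, Satb1, Klf2, Foxo1, Bcl6 and Myb, were followed through 8 clusters of CD8+ T cells. The 9 genes were listed by name, with no threshold on their values, and each was found among the 17561 genes of the count table. Of them, 8 reached 10 CPM (counts-per-million, the UMIs or captured molecules of a gene scaled by all UMIs of the cells summed) over all 11754 cells, and Bcl6, which did not, is described apart. The cells were sort purified from mouse BM at week 4 (day 28) after SCT and captured on a droplet platform that reads the 5′ end of transcripts, with the TCR chains of the same cells. Each of the 4 treatment groups was 1 library from 5 pooled mice.

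Recipients were on a C57BL/6 background, WT or transgenic for CRBN, and received donor BM together with T cells. The transgene encodes a modified cereblon that lenalidomide can engage in mouse cells, and per the study's methods recipients carried the Vk12653 myeloma. The groups were isotype control antibody with vehicle (cIg), αTIGIT with vehicle, isotype control with lenalidomide, and αTIGIT with lenalidomide. Antibody began on the day of transplant, and lenalidomide or vehicle on day 14. The deposited cell table numbers the libraries from 1 to 4 and gives no treatment for a number, so no value was assigned to a treatment and treatments were not compared.

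As background, TCF-1 (encoded by Tcf7) and LEF-1 are paired HMG-box factors that keep T cells in a resting or self-renewing state, and TCF-1 marks the stem-like cells from which exhausted cells are replenished. KLF2, driven by FOXO1 in resting cells, sustains S1pr1, the exit receptor of recirculating T cells. ID3 restrains E proteins, BACH2 and BCL6 repress effector genes and oppose BLIMP-1 (Prdm1), MYB sustains stem-like CD8+ T cells, and SATB1 organizes chromatin in thymocytes and naive T cells and is shut down on effector differentiation.

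Libraries held 1725 to 4237 cells and 15556967 to 38440687 unique molecular identifiers (UMIs, each 1 captured RNA molecule). CPM over libraries together weighs deeper cells and larger libraries more. Intervals are 95% intervals that cover counting error only. Clusters carry the authors' names: naive (Tn), central memory (Tcm), transitory effector (transitory Teff), GzmB+ Teff, TIGIT+ Teff, TIM-3+ exhausted (TIM-3+ Tex), GzmA+ Tex and cycling cells. The 5 Teff and Tex clusters, as grouped here, leave out cycling cells, which does not mean that cycling cells are not exhausted. The 5 Tex markers summed to 1188 CPM in cycling cells. In the 5 Teff and Tex clusters they summed to between 701 CPM (GzmB+ Teff) and 2301 CPM (TIM-3+ Tex). All 8 clusters were formed on the same expression values, and each treatment is 1 library. Differences between clusters are therefore descriptions, and no p value is given. The 4 CD8 T cell markers summed to between 2442 CPM (Tcm) and 6289 CPM (TIM-3+ Tex). Some names go against their gene. Havcr2, the gene for TIM-3, was 76.7 CPM in TIM-3+ Tex and 78.8 CPM in TIGIT+ Teff, with overlapping library ranges. Tigit was higher in TIM-3+ Tex (567 CPM) than in TIGIT+ Teff (313 CPM), Gzma was likewise higher in TIM-3+ Tex (1192 CPM) than in GzmA+ Tex (684 CPM), and Tcm had 217 CPM of Cd8b1 where the other clusters had at least 934 CPM. The 8 macrophage markers summed to 1539 CPM in GzmA+ Tex and to at most 87.3 CPM elsewhere. Between libraries, 56 cell barcodes recurred, 0 of them with the same clonotype.

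Upstream sequence is shown for 3 members that part ways in the results. Satb1 was at least 2-fold lower in cells of expanded clones in every cluster compared but Tcm. Lef1 was so in GzmB+ Teff and GzmA+ Tex only, and Klf2 in none. The sequences are from RefSeq promoter windows on GRCm38.p6, written 5′ to 3′ on the strand of the gene and ending at the RefSeq start site or, for Klf2, before the first annotated exon. Capitals mark a GC box (GGGCGG) in Lef1 and Klf2 and a KLF motif (GGGTGTG, matched on the other strand) in Satb1, both searched on both strands.
Lef1, chr3:131110073-131110322, plus strand: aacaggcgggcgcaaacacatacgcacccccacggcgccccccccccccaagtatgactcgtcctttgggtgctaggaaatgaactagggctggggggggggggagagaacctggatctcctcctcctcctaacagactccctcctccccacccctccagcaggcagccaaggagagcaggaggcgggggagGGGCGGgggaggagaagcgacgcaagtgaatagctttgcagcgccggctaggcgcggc
Satb1, chr17:51833291-51833540, minus strand: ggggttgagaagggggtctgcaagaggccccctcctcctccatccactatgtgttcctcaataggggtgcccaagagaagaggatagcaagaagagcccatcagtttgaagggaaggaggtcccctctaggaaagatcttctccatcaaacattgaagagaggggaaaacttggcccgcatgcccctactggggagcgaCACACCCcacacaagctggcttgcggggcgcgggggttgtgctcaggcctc
Klf2, chr8:72318812-72319032, plus strand: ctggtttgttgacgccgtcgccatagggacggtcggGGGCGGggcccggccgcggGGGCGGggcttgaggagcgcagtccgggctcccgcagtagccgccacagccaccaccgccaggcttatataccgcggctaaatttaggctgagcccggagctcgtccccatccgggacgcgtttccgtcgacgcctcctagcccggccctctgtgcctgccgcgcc
Of 27025 windows of 250 bases, 1 per gene, 32.9% hold the GC box and 6.85% the KLF motif. A TCF/LEF motif (CTTTGA, in 14.1% of windows) and a FOXO motif (TGTTTAC, in 3.09%) had no match in these 3 windows. The Lef1 window overlaps Gm43352 and the Satb1 window overlaps Gm6934, both annotated on the opposite strand. The genes themselves lie on chromosome 3 from 131110471 to 131224356 (Lef1), chromosome 17 from 51736187 to 51833290 (Satb1) and chromosome 8 from 72319033 to 72321656 (Klf2) in GRCm38.

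Tcf7, the gene for TCF-1, fell in steps from resting to exhausted cells. In Tn, libraries 1 to 4 had 221, 249, 229 and 192 CPM, and in TIM-3+ Tex they had 43.5, 36.7, 9.37 and 66.9 CPM. The 2 clusters did not overlap in any library, and the low value of library 3 came from 31 cells of TIM-3+ Tex. Over the libraries together the order was Tn (221 CPM), Tcm (159), transitory Teff (135), GzmB+ Teff (118), TIGIT+ Teff (112), GzmA+ Tex (93.1), cycling cells (51.3) and TIM-3+ Tex (49.1). Of these neighbours, the library values of Tn, Tcm and transitory Teff were separate from each other, as were those of GzmA+ Tex and cycling cells. Within the middle group, from transitory Teff to GzmA+ Tex, and between cycling cells and TIM-3+ Tex, library ranges overlapped.

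**Figure D1:**
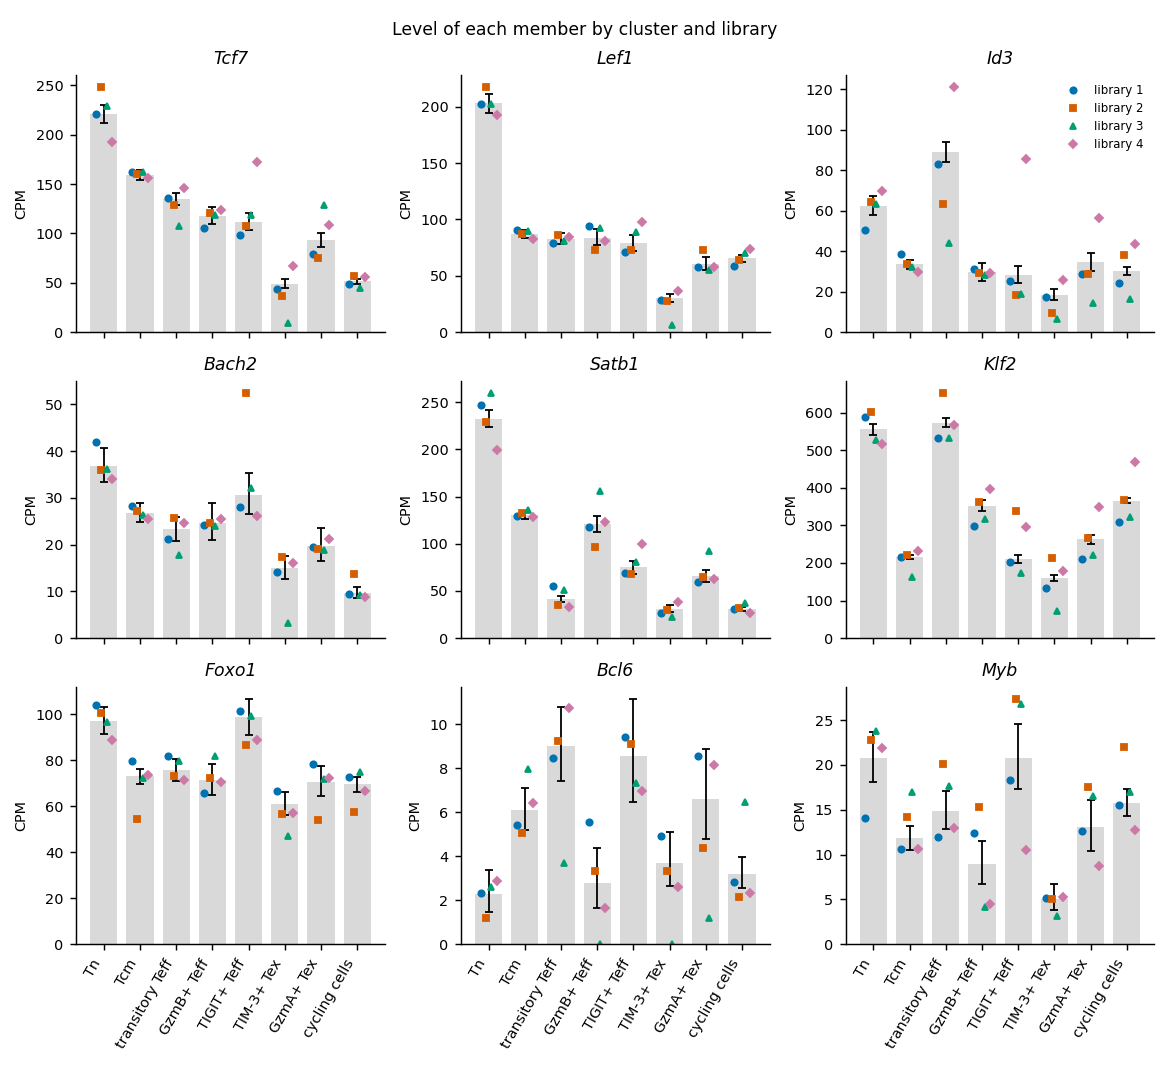
CPM of each member (y axes, each panel on its own scale) in the 8 clusters (x axis). Grey bars are the 4 libraries together with 95% Poisson intervals and symbols are single libraries; Tcf7, Lef1 and Satb1 peak in Tn, whereas Klf2 and Id3 are as high or higher in transitory Teff over the 4 libraries.

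Lef1, its relative, was lower in Tcm than in Tn and lowest in TIM-3+ Tex. Libraries 1 to 4 had 202, 218, 203 and 192 CPM in Tn against 90.3, 86.8, 90.0 and 83.0 CPM in Tcm. It was 79.0 to 86.8 CPM in Tcm, GzmB+ Teff, transitory Teff and TIGIT+ Teff, whose intervals and library ranges overlapped from neighbour to neighbour. TIM-3+ Tex was lowest (30.3 CPM, interval 27 to 33.8) and stood apart from its nearest neighbour, GzmA+ Tex (60.7 CPM), in every library.

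Satb1 had another order from Tcf7. It was 232 CPM in Tn, 130 CPM in Tcm and 121 CPM in GzmB+ Teff, but 41.5 CPM in transitory Teff, a cluster that ranked next after Tcm for Tcf7. By library, transitory Teff had 55.4, 34.9, 50.8 and 32.6 CPM, and GzmB+ Teff had 118, 97, 156 and 123 CPM. The 2 Teff clusters did not overlap. TIM-3+ Tex (31.1 CPM) and cycling cells (31.0 CPM) were lowest and could not be separated.

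Against Tn, the 5 Teff and Tex clusters together were at least 2-fold lower in 3 of the 8 members, Tcf7, Lef1 and Satb1, with the same direction in every library. By that rule 0.815% of the 7604 genes with at least 10 CPM were lower and 9.17% were higher. On a log2 scale, where 1 unit is 2-fold, the difference was -1.12 for Tcf7 (interval -1.19 to -1.05), -1.61 for Lef1 (-1.69 to -1.53) and -1.96 for Satb1 (-2.04 to -1.88). The other 5 lay between -0.77 (Myb) and -0.39 (Foxo1), and none of the 8 was 2-fold higher. The median over all 7604 genes was 0.30, because mitochondrial and ribosomal protein transcripts took 42.3% of UMIs in Tn and 23.0% to 33.6% in the 5 clusters. With these transcripts left out of the total, Bach2 (-1.04), Klf2 (-1.02) and Myb (-1.07) also passed 2-fold, making 6 of 8, where 1.87% of genes were lower.

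**Figure D2:**
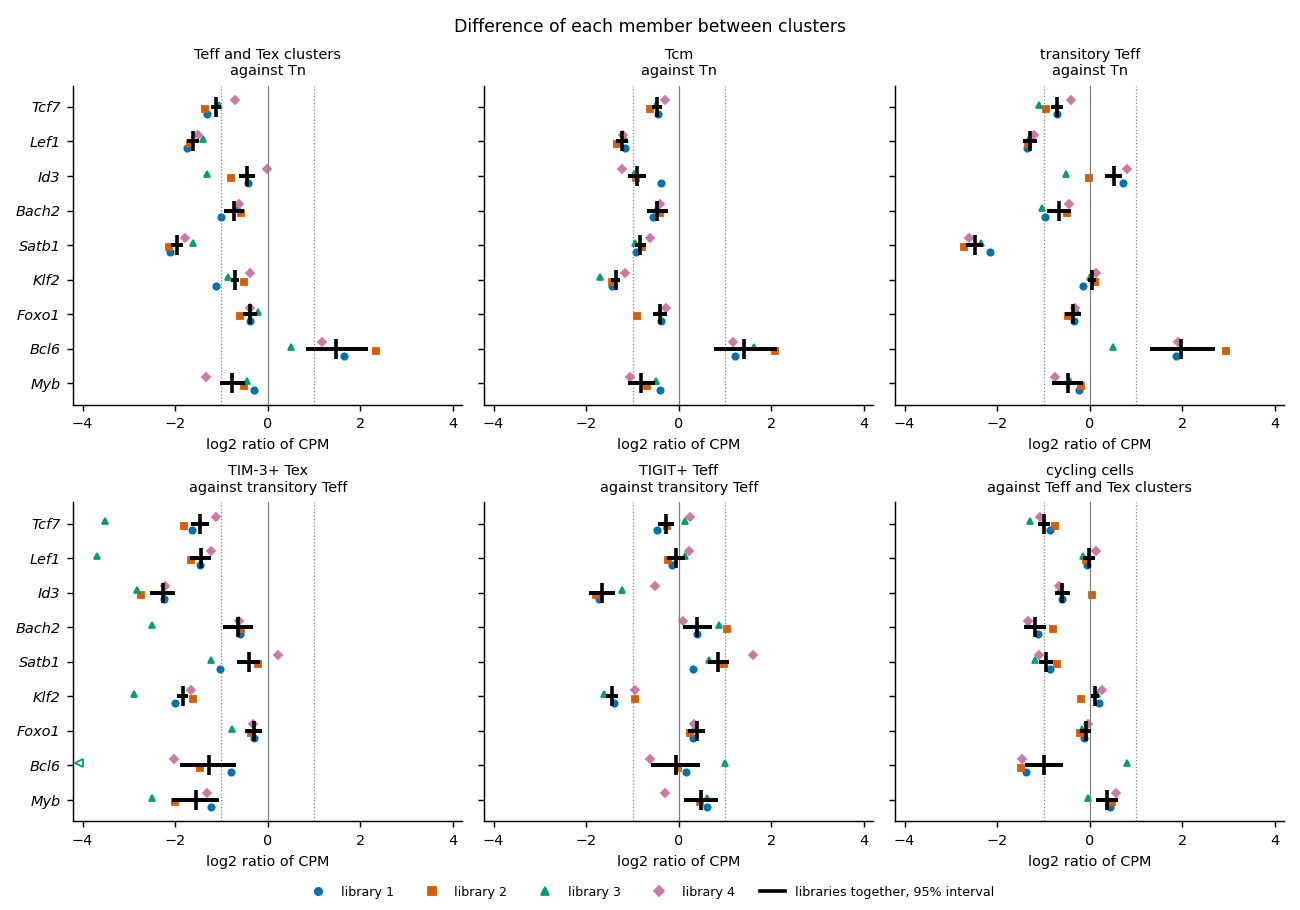
Log2 ratio of CPM (x axes) for each member (rows) in the 6 comparisons between clusters. Black bars are the 4 libraries together with 95% intervals, symbols are single libraries, dotted lines mark 2-fold, and an open triangle at the edge is a library with 0 UMIs in one of the clusters; in TIM-3+ Tex all 9 members lie below 0 against transitory Teff.

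Klf2 did not fall from Tn to transitory Teff, but it was below Tn in every library in GzmB+ Teff (353 CPM) and TIGIT+ Teff. Libraries 1 to 4 had 588, 601, 528 and 516 CPM in Tn and 534, 653, 531 and 567 CPM in transitory Teff. These ranges overlapped, and the log2 difference of transitory Teff to Tn was 0.05 (interval -0.00 to 0.10). In Tcm, Klf2 was 215, 222, 161 and 231 CPM. Tcm was thus below Tn and transitory Teff in each library, and its 216 CPM overall were close to the 210 CPM of TIGIT+ Teff. TIM-3+ Tex was lowest again (160 CPM).

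Tcm was at least 2-fold lower than Tn in 2 of the 8 members, Lef1 (-1.23, interval -1.31 to -1.14) and Klf2 (-1.36, -1.42 to -1.31), where 0.723% of genes were lower and 3.22% higher. S1pr1 (-1.95), the receptor for sphingosine-1-phosphate that T cells use to leave tissue, and Ccr7 (-3.10) and Il7r (-3.96), receptors of naive cells, were lower in Tcm in every library. Tcf7 was -0.47. After each of the 3418 Tcm cells was thinned to 2500 UMIs, 1032 had a UMI of Cd8b1. At this depth a cell without a UMI may still express Cd8b1, which limits the comparison. Members differed little between thinned Tcm cells with and without one. The largest difference was in Lef1, at 0.38 (interval 0.16 to 0.60), and the intervals of the other 8 included 0.

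Transitory Teff was at least 2-fold lower than Tn in 2 of the 8 members, Lef1 (-1.29, interval -1.40 to -1.19) and Satb1 (-2.49, -2.62 to -2.35), where 1.07% of genes were lower and 6.12% higher. Id3, the E protein inhibitor, varied between libraries here. Its level was 83.2, 63.2, 44.2 and 121 CPM in transitory Teff and 50.4, 64.3, 63.3 and 69.8 CPM in Tn. Libraries 1 and 4 were above Tn and library 3 was below. Over the libraries together Id3 was highest in transitory Teff (88.9 CPM), followed by Tn (62.4 CPM) and by 18.5 to 34.5 CPM elsewhere. After each cell was thinned to 2500 UMIs, the share of cells with an Id3 UMI was 11.3% in both transitory Teff and Tn.

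Of the 6 comparisons, TIM-3+ Tex against transitory Teff had the most members called with all UMIs in the total. With mitochondrial and ribosomal protein transcripts left out, the Teff and Tex clusters against Tn had more, as given above. The values here are with all UMIs. Of the 8, 5 were at least 2-fold lower in TIM-3+ Tex with that direction in every library, where 0.75% of genes were lower and 0.921% higher. They were Id3 (-2.26, interval -2.49 to -2.04), Klf2 (-1.84, -1.92 to -1.76), Myb (-1.55, -2.02 to -1.10), Tcf7 (-1.46, -1.60 to -1.31) and Lef1 (-1.45, -1.64 to -1.27). Bach2 (-0.64), Satb1 (-0.41, but 0.23 in library 4) and Foxo1 (-0.31) stayed within 2-fold, and the median of all genes was 0.05. For Klf2, libraries 1 to 4 had 132, 213, 71.9 and 179 CPM in TIM-3+ Tex, each under the lowest library of transitory Teff.

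The clone of a cell was read from its TCR, which the clustering did not use. The clusters compared within clones were still those formed on expression. A clonotype was called expanded when it was in at least 2 cells of a library and single when it was in 1. In all, 74 clonotypes had cells in both transitory Teff and TIM-3+ Tex of the same library, with 687 and 506 cells. Within these clonotypes Tcf7 was 122 CPM in transitory Teff and 10.9 CPM in TIM-3+ Tex, a log2 difference of -3.49 (interval -4.03 to -2.99) in place of -1.46 over all cells. Id3 was 92.5 against 4.98 CPM (-4.22, interval -5.04 to -3.50). Klf2 was 671 against 126 CPM (-2.41) and Lef1 was 66.6 against 19.0 CPM (-1.81). By library the Tcf7 difference was -3.35, -4.64 and -3.20 in libraries 1, 2 and 4, and library 3 had 15 cells of TIM-3+ Tex with 0 UMIs of Tcf7. Foxo1 remained within 2-fold (-0.46, interval -0.74 to -0.19). Of the 8 members, 3 (Tcf7, Lef1 and Klf2) passed the 2-fold rule, where 0.75% of genes were lower and 0.999% higher. Id3 did not pass, since library 3 had 0 UMIs in TIM-3+ Tex and 2 in transitory Teff, which gives no direction. Myb, with 8 against 25 UMIs, was -1.39 (interval -2.75 to -0.20) and did not pass either, again with 0 against 2 UMIs in library 3. This comparison was chosen after the values over all cells had been seen.

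The Tcf7 of TIM-3+ Tex lay mostly in cells without a clonotype. The 533 cells of expanded clones held 36 UMIs (10.6 CPM), the 42 single cells 28 UMIs (73.6 CPM) and the 481 cells without a clonotype 439 UMIs (67.8 CPM). Expanded cells had 10.6, 3.78, 0 and 15.4 CPM of Tcf7 in libraries 1 to 4, and cells without a clonotype had 59.8, 53.6, 22.0 and 87.8 CPM. The value was higher without a clonotype in every library. These cells were also deeper, with a median of 12860 UMIs against 5579 UMIs in expanded cells, and had more Ccr7 (6.5 against 0.29 CPM) and less Cd3e (1909 against 2517 CPM). The part of these differences in the result was not tested. In Tn and Tcm, by contrast, Tcf7 was 215 and 158 CPM without a clonotype against 222 and 161 CPM in single cells, at similar depth.

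**Figure D3:**
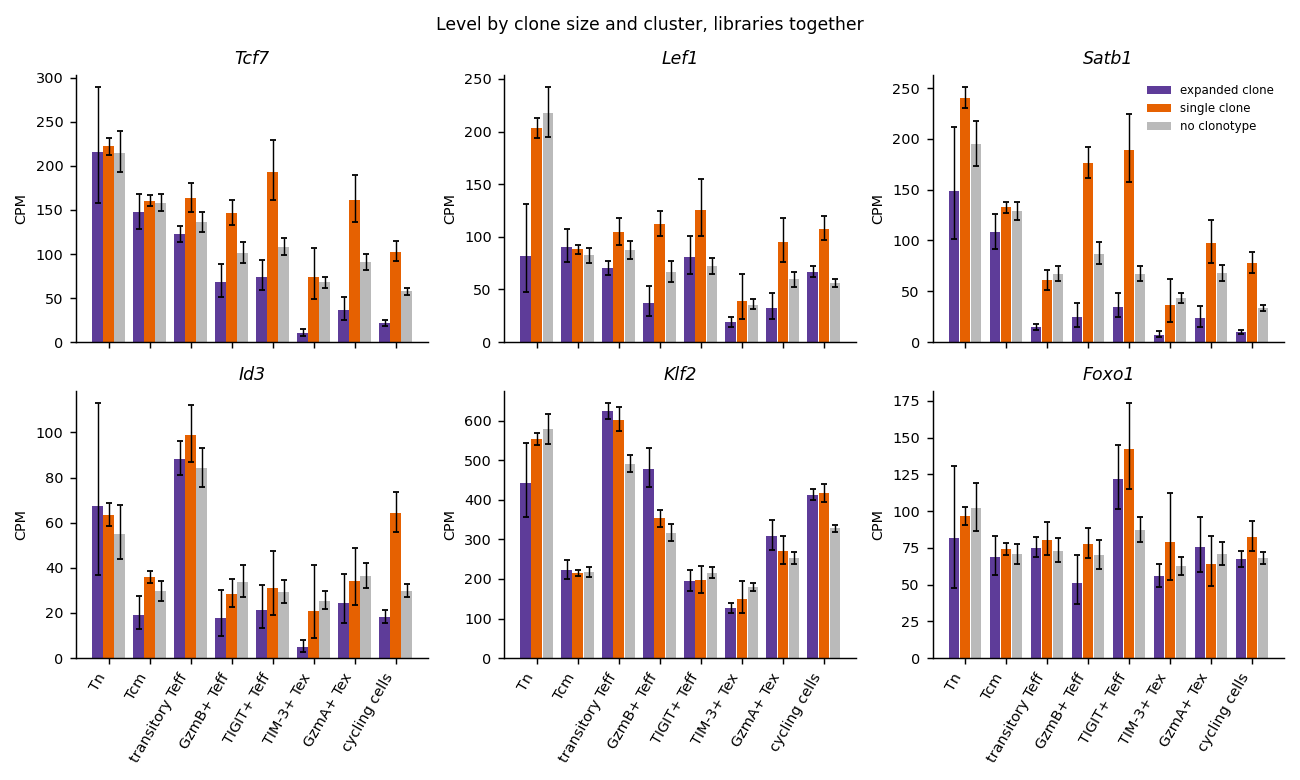
CPM of 6 members (y axes) by cluster (x axis) in cells of expanded clones, single clones and cells without a clonotype, with the 4 libraries together and 95% Poisson intervals. In expanded clones Tcf7 is 122 CPM in transitory Teff and 10.6 CPM in TIM-3+ Tex, and Klf2 is 623 and 126 CPM.

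Among cells of expanded clones alone, the order of Tcf7 was Tn (216 CPM, from 34 cells), Tcm (148), transitory Teff (122), TIGIT+ Teff (74.4), GzmB+ Teff (68.0), GzmA+ Tex (36.8), cycling cells (21.4) and TIM-3+ Tex (10.6). Klf2 in the same cells was 623 CPM in transitory Teff, 479 CPM in GzmB+ Teff, 412 CPM in cycling cells and 126 CPM in TIM-3+ Tex. Id3 in expanded cells outside Tn was 88.3 CPM in transitory Teff and 5.01 to 24.5 CPM in the other 6 clusters.

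Within a cluster, cells of expanded clones had at least 2-fold less Satb1 than single cells in 4 of the 5 clusters that held at least 10 cells of each kind in every library. In GzmB+ Teff, libraries 1 to 4 had 19.5, 11.7, 8.21 and 39.1 CPM of Satb1 in expanded cells and 142, 156, 235 and 182 CPM in single cells. In cycling cells they had 12.7, 6.43, 15.8 and 3.31 CPM against 77.5, 59.5, 108 and 77.3 CPM. Neither cluster showed overlap between the 2 kinds of cell. The log2 difference was -2.86 in GzmB+ Teff (interval -3.60 to -2.20), -3.03 in cycling cells (-3.41 to -2.66), -2.06 in transitory Teff (-2.45 to -1.67) and -2.06 in GzmA+ Tex (-2.82 to -1.36), and -0.30 in Tcm (-0.53 to -0.07), where it was below 0 in each library and within 2-fold.

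Tcf7 was at least 2-fold lower in expanded cells of GzmB+ Teff (-1.11), GzmA+ Tex (-2.14) and cycling cells (-2.26), and Lef1 in GzmB+ Teff (-1.59) and GzmA+ Tex (-1.56). Cycling cells also had less Id3 (-1.80) and Bach2 (-1.33), and transitory Teff less Myb (-1.99). That made 4 of 8 members lower in cycling cells, 3 in GzmB+ Teff, 3 in GzmA+ Tex, 2 in transitory Teff and 0 in Tcm. The shares of all genes lower by the same rule were 1.6%, 1.58%, 1.81%, 0.868% and 0.0921% in that order of clusters. No member was 2-fold higher, where 0.829%, 4.18%, 2.81%, 0.592% and 0.0263% of genes were. Without library 4, Id3 and Bach2 also passed in GzmB+ Teff, and without library 3, Id3 passed in Tcm. The shares of all genes with a library left out are not given here, so these changes describe the settings and not the members. With 1 cell per clonotype, Myb in transitory Teff was -1.22 and no longer passed in every library, and Tcf7 in GzmB+ Teff was -0.62.

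**Figure D4:**
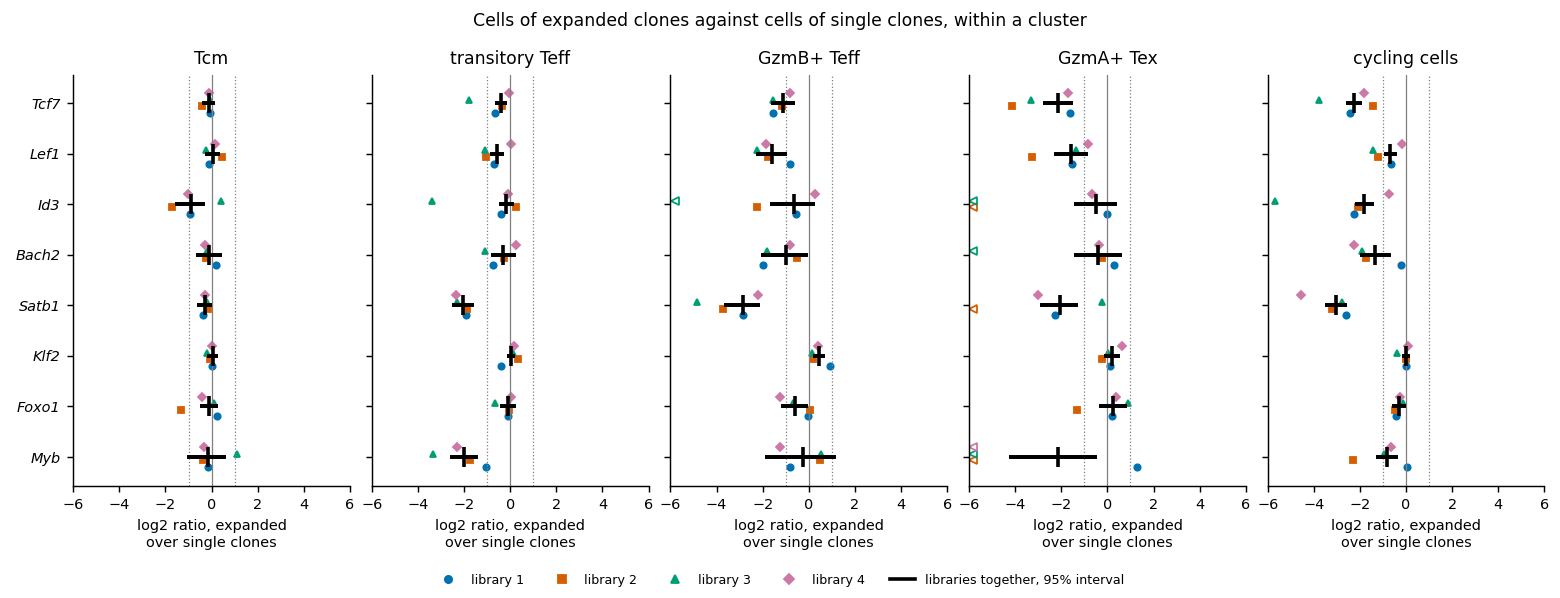
Log2 ratio of CPM in cells of expanded over single clones (x axes) for 8 members (rows) in 5 clusters. Black bars are the 4 libraries together with 95% intervals, symbols are single libraries and open triangles at the edge are libraries with 0 UMIs in one kind of cell; Satb1 lies left of the dotted 2-fold line in all clusters but Tcm, and Klf2 and Foxo1 lie between the lines.

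Klf2 and Foxo1 did not share this pattern. Klf2 was 0.04 in Tcm, 0.05 in transitory Teff, 0.44 in GzmB+ Teff, 0.19 in GzmA+ Tex and -0.01 in cycling cells, and Foxo1 was between -0.60 and 0.24. Markers of naive cells moved with clone size too. Il7r was lower in expanded cells of all 5 clusters (-2.0 to -3.11), and Ccr7 was -1.19 in Tcm and -2.13 to -4.76 in the others. Single cells were deeper in GzmB+ Teff (median 7733 against 4766 UMIs) and in cycling cells more often carried 2 TRB chains (21.0% against 12.4% of cells). The part of these in the result was not tested. Without cells that carried 2 TRB chains, Satb1 was -2.97 in GzmB+ Teff and -3.11 in cycling cells.

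TIGIT+ Teff was at least 2-fold lower than transitory Teff in 2 of the 8 members, Id3 (-1.66, interval -1.89 to -1.43) and Klf2 (-1.45, -1.53 to -1.36). By the same rule 0.197% of genes were lower and 16.1% higher. Klf2 was 201, 337, 173 and 294 CPM in TIGIT+ Teff, and Id3 was 25.1, 18.2, 18.9 and 85.4 CPM. Library 4, with 59 cells, was far above the other 3 for Id3, and libraries 1 and 3 held 436 and 271 of the 816 cells. Satb1 went the other way (0.85, interval 0.67 to 1.03), as did Bach2 (0.40) and Foxo1 (0.38), all without reaching 2-fold, though Satb1 passed when library 1 was left out. Differences in this cluster went with gene length. The median over genes was -0.13 for those spanning under 10 kb (1922 genes), 0.20 for 10 to 30 kb, 0.71 for 30 to 100 kb and 0.95 above 100 kb. Id3 spans 2.26 kb and Klf2 2.62 kb, whereas Satb1 spans 97.1 kb, Foxo1 84.9 kb and Bach2 347 kb. The part of gene length in these values was not tested.

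In 63 clonotypes with cells in both TIGIT+ Teff and transitory Teff, Klf2 was 197 against 618 CPM (-1.65, interval -1.88 to -1.43) and lower in every library, which made it 1 of the 8 members, where 1.45% of genes were lower. Id3 was 24.6 against 89.5 CPM (-1.86, interval -2.56 to -1.24), but above transitory Teff in library 3, on 8 against 1 UMIs, and so did not pass. Tcf7 was -0.62 overall but -0.95, 1.25, 0.04 and 0.10 in libraries 1 to 4, so that only library 1 was below 0. Myb, at 24 against 20 UMIs, was 26.8 against 6.03 CPM (2.15, interval 1.24 to 3.09), higher in every library, where 19.6% of genes were 2-fold higher.

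Cycling cells were at least 2-fold lower than the 5 Teff and Tex clusters in 1 of the 8 members, Bach2 (-1.18, interval -1.38 to -0.98), where 0.894% of genes were lower and 5.04% higher. By library Bach2 was 9.46, 13.7, 9.17 and 8.78 CPM, the lowest of all clusters apart from library 3 of TIM-3+ Tex. Tcf7 (-0.99) and Satb1 (-0.95) were close under the limit. Tcf7 passed when library 1 or library 2 was left out. Klf2 (0.11), Lef1 (-0.02) and Foxo1 (-0.09) were near 0, and Myb, whose relative Mybl2 is a factor of dividing cells and was higher here by 3.55, was 0.37. In 155 clonotypes with both cycling and Teff or Tex cells the Tcf7 difference was -1.76 (interval -2.0 to -1.52), with Bach2 at -1.65 and Id3 at -1.40. These 3 members passed, where 2.42% of genes were lower and 6.02% higher. Lef1 was 0.43 (interval 0.25 to 0.60) there and above 0 in each library.

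Foxo1 was the flattest member. It ranged from 61.0 CPM (TIM-3+ Tex) to 98.6 CPM (TIGIT+ Teff), with 104, 101, 96.4 and 88.8 CPM in Tn of libraries 1 to 4 and 101, 86.6, 99.2 and 88.9 CPM in TIGIT+ Teff. Those 2 clusters could not be separated, and the 5 clusters from transitory Teff to cycling cells lay between 69.5 and 75.5 CPM with overlapping intervals. Bach2 declined from Tn (36.8 CPM) to cycling cells (9.74 CPM), and its neighbours overlapped in interval up to TIM-3+ Tex (14.9 CPM). Myb was low throughout, from 20.7 CPM in both Tn and TIGIT+ Teff to 5.08 CPM in TIM-3+ Tex, where libraries 1 to 4 had 5.12, 5.00, 3.12 and 5.24 CPM.

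Bcl6 was the one member that was lowest in Tn. Libraries 1 to 4 had 2.35, 1.20, 2.61 and 2.85 CPM in Tn, and 8.46, 9.22, 3.68 and 10.7 CPM in transitory Teff. The 2 clusters did not overlap, though counts were small, with 538 UMIs of Bcl6 in all cells. The log2 difference to Tn was 1.97 in transitory Teff (interval 1.34 to 2.66), 1.41 in Tcm (0.79 to 2.08) and 1.47 in the 5 Teff and Tex clusters (0.88 to 2.12), each higher in every library. In GzmB+ Teff (2.76 CPM) it was at the level of Tn.

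Cell by cell, at 2500 UMIs per cell, Tcf7 was found in fewer cells from Tn to TIM-3+ Tex. The share of cells with a Tcf7 UMI was 41.7% in Tn, 32.7% in Tcm, 23.8% in transitory Teff, 21.8% in TIGIT+ Teff and 8.71% in TIM-3+ Tex. Without thinning these shares were 77.0%, 65.5%, 42.5%, 42.8% and 24.4%. A cell had a mean of 2.39 members detected in Tn and of 0.653 in TIM-3+ Tex, and 4.84% against 54.1% of cells had none of the 9. At this depth a cell without a UMI may still express the gene, and free RNA was not measured, since no cluster of cells that lack these genes was in the table.

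Within transitory Teff, Id3 was detected more often in cells with a Tcf7 UMI than in the others. Id3 was detected in 18.7%, 16.4%, 12.5% and 26.1% of cells with a Tcf7 UMI in libraries 1 to 4, and in 6.76%, 5.23%, 5.70% and 13.4% of the other cells. The share was higher in Tcf7-positive cells in each library, and overall it was 20.2% (interval 16.6 to 24.2, 91 of 450 cells) against 8.54% (7.14 to 10.1, 123 of 1441 cells). Myb showed the same, with 4.89% (22 cells) against 1.11% (16 cells). Satb1 differed less, at 10.7% against 7.01%. In Tn, Id3 was in 12% of Tcf7-positive and 10.9% of other cells, and Lef1 in 38.1% and 37.2%.

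Within expanded clones of transitory Teff the pairing of Id3 with Tcf7 was again present, at 22.3% (49 of 220 cells) against 8.06% (69 of 856 cells). The 49 cells came from 33 clonotypes, with at most 5 from one. Satb1 was not raised in Tcf7-positive cells of these clones (2.73% against 4.21%). Among single clones Id3 was in 16.1% against 12.5% of cells, whose intervals overlapped.

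**Figure D5:**
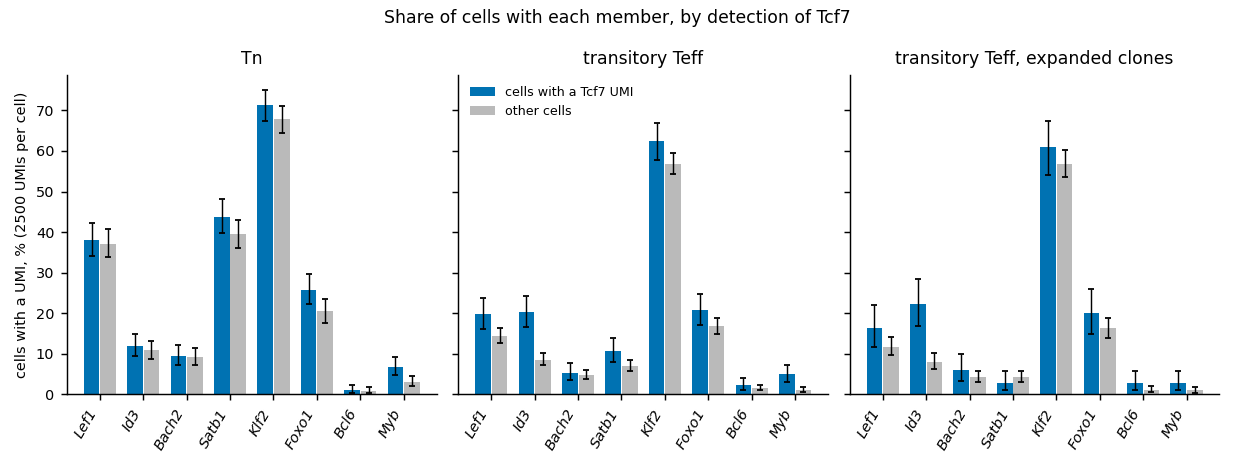
Share of cells with a UMI of each other member (y axis, percent, each cell thinned to 2500 UMIs) in cells with a Tcf7 UMI (blue) and other cells (grey), with 95% Clopper-Pearson intervals over the 4 libraries together. In transitory Teff Id3 is at 20.2% against 8.54%, and in Tn the 2 bars of Id3 are nearly equal.

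Relatives of the members mostly held their level. Of 28 relatives and partners, 20 passed 10 CPM. Against Tn, 3 of these were higher in the 5 Teff and Tex clusters, where 9.17% of all genes were: Id2 (1.09), the effector counterpart of Id3, Klf10 (1.14) and Mybl2 (1.48). None of the 20 was lower, where 0.815% of all genes were. The median of the 20 was 0.22 against 0.30 for all genes. Foxp1, a quiescence factor, was -0.73 and within 2-fold. In TIM-3+ Tex against transitory Teff only Klf3 was lower (-1.12) and none was higher, where 0.75% of all genes were lower and 0.921% higher. TIGIT+ Teff had 4 higher, among them Tcf12 (1.35), Bach1 (1.59) and Foxo3 (1.53), where 16.1% of all genes were higher, the list's median was 0.69 and that of all genes 0.33.

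Of 15 measured targets and companions of resting and stem-like cells, 4 were lower in the Teff and Tex clusters than in Tn, among them Ccr7 (-3.17), Il7r (-2.51) and S1pr1 (-1.24), where 0.815% of all genes were lower. Xcl1, a chemokine of stem-like cells, was higher (2.45), and the median was -0.12. TIM-3+ Tex was lower than transitory Teff in 5, where 0.75% of all genes were: Il7r (-2.53), Ccr7 (-2.42), S1pr1 (-2.05), Slamf6 (-1.50) and Xcl1 (-1.10), with a median of -0.71 against 0.05 for all genes. Of the 8 effector and exhausted factors, 6 were higher in the Teff and Tex clusters than in Tn, where 9.17% of all genes were, among them Prdm1 (4.09), Zeb2 (3.96) and Tox (3.14), with a median of 2.36. TIM-3+ Tex had more Prdm1 than transitory Teff (1.33).

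Likeness was measured as Pearson's r of log2(CPM + 10) over 32 values, 8 clusters in 4 libraries, against 4077 genes with at least 50 CPM. The values share libraries and clusters, so r is a description. Tcf7 was most like Klhl6 (0.945), Cmah (0.928) and Foxp1 (0.920), and Lef1 most like Cmah (0.940), Sidt1 (0.927) and Klhl6 (0.912). Satb1 was most like Sh3bp5 (0.949), and Nsg2 was also among its nearest genes (0.937). Klf2 was most like S1pr1 (0.889), which was 94.8 CPM in Tn, 66.1 CPM in transitory Teff, 24.5 CPM in Tcm and 16.0 CPM in TIM-3+ Tex. Id3 was most like Arl5c (0.779), Klf2 (0.747) and Slamf6 (0.744), and Bach2 most like Tcf7 (0.851). Foxo1 (Fam169b, 0.845), Bcl6 (Ddx50, 0.707) and Myb (Nptn, 0.715) were most like the genes named beside them. Among the members, Tcf7 and Lef1 had 0.880, Tcf7 and Satb1 0.817, and Satb1 and Klf2 0.277.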

How the data were processed

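CD8+ T cells of 4 libraries were analysed. Per the study's methods, the authors ran Cell Ranger (version 7.00 with mm10 in the submitters' processing notes), downsampled reads across libraries, kept cells by UMI number, mitochondrial share and Cd3e/g and Cd8a expression, clustered them with Monocle3 and combined TCR chains with scRepertoire. The deposited table holds their raw UMI count per gene and cell, with no normalization.

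Genes were named through GENCODE M21 (17534 of 17561 matched). UMIs were summed per cluster and library, and CPM, log2 ratios and shares were given Poisson, conditional binomial and Clopper-Pearson intervals (95%). A gene was called lower or higher when it passed 2-fold over the libraries together with the same sign in each, and a count of 0 was set to 3. Shares were taken after thinning to 2500 UMIs per cell (random seed 7). Doublets were not removed. The named genes were all 9 members, the lists of relatives, targets and effector factors, and the 3 genes most like each member with at least 50 CPM. Some listed genes are not reported here. Members and lists were chosen with earlier results of these data known. Labels give 1 library per treatment and the cell table gives none, so no test was made. In all, 837 cells had a Leiden number that points to another cluster name, and the authors' name was used. Alternatives changed the depth, weighting, cells, denominator and libraries. Intervals came from scipy 1.17.1, figures from matplotlib 3.10.9 and sums from pandas 2.3.3 with numpy 2.4.6, all under Python 3.11.15, and the calls and intervals were tested on simulated data.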

Additional observations from a re-analysis of the deposited data

Results flagged for a closer look

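These values were listed because 2 libraries lay on opposite sides of 0 with intervals that excluded it; the difference between the libraries was not tested further, and the treatments behind the library numbers are not known here. Id3 in transitory Teff against Tn was 0.80 on the log2 scale in library 4 (interval 0.57 to 1.03) and -0.52 in library 3 (-0.97 to -0.08), a difference of 1.315. Klf2 in transitory Teff against Tn was 0.14 in library 4 (0.05 to 0.22) and -0.14 in library 1 (-0.24 to -0.04), a difference of 0.27. Klf2 in cycling cells against the Teff and Tex clusters was 0.26 in library 4 (0.20 to 0.32) and -0.19 in library 2 (-0.29 to -0.10), a difference of 0.45. Klf2 in expanded against single clones of transitory Teff was 0.33 in library 2 (0.16 to 0.49) and -0.42 in library 1 (-0.58 to -0.25), a difference of 0.74.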

How the results depend on the processing

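No called member changed its direction under any alternative. Of the counts of members under the alternatives, 252 stayed within 1.5 times the main count and 28 did not. The 252 include counts of 0 that stayed at 0. Under the main setting, none of the 8 members was higher between clusters or between clone sizes. Of the log2 ratios of single members, 924 stayed within the interval of the main value and 309 did not.

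The share of all genes called under each alternative is not given in this section, so the counts below describe the settings and not the members. TIGIT+ Teff against transitory Teff was the comparison most open to the settings, with 16.1% of all genes higher under the main one. Its 0 members higher became 3 with thinned cells (Bach2, Satb1 and Myb), 2 with the mean of per-cell CPM, without cells holding macrophage, B or plasma cell markers, or with cells whose name and Leiden number agree (Satb1 and Myb each time), and 1 with the Leiden number (Myb), with 1 cell per clonotype or with cells that have a clonotype (Satb1), or with clonotypes found in both clusters (Myb). Its 2 lower became 1 (Klf2) with the Leiden number and with clonotypes found in both clusters. Leaving out 1 library gave 0 to 1 higher, the 1 being Satb1 without library 1.

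Cycling cells against the Teff and Tex clusters had 1 lower, where 0.894% of all genes were lower under the main setting. The count was 2 (with Tcf7) after thinning or with at most 1 TRB chain. It was 1 to 2 when a library was left out (2 without library 1 or library 2). It was 3 without marker-holding cells, without mitochondrial and ribosomal protein genes, or with cells that have a clonotype (Tcf7, Bach2 and Satb1), and 3 with clonotypes found in both clusters. The 5 lower in TIM-3+ Tex became 3 there. Id3, at -4.22, and Myb, at -1.39, each had 0 UMIs in TIM-3+ Tex of library 3 and 2 in transitory Teff, which gives no direction. The 3 lower in the Teff and Tex clusters against Tn became 6 without mitochondrial and ribosomal protein genes, which moved the median of all genes by -0.30. In transitory Teff, 1 cell per clonotype left 1 lower (Satb1) of the 2 against Tn and 1 (Satb1) of the 2 between clone sizes. With no minimum CPM, Bcl6 made 1 higher against Tn in the Teff and Tex clusters, in Tcm and in transitory Teff. Between clone sizes, leaving out a library gave 0 to 1 lower in Tcm (Id3 without library 3) and 3 to 5 in GzmB+ Teff (Id3 and Bach2 added without library 4).

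Cells without macrophage, B or plasma cell markers numbered 5109, 20 of them in GzmA+ Tex. Clone-size and shared-clone values rest on 7961 cells with a clonotype, and library 3 of TIM-3+ Tex held 31 cells. The settings on TRB chains, agreeing names, cells with a clonotype and clonotypes in both clusters were chosen after seeing the data. Clusters and clone sizes were compared within each library. No paired analysis was possible because, for the treatments, each is 1 library whose number is not paired with a label.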
